A study of Rattus norvegicus with 20 samples.

Results

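Hepatic stellate cells lie between the hepatocytes and the sinusoidal endothelium, store vitamin A as retinyl esters, and are the main source of fibrillar collagen when the liver scars. They are recognised by the enzyme that esterifies retinol (Lrat), the beta receptor for platelet-derived growth factor (Pdgfrb), the intermediate filament desmin (Des) and secreted reelin (Reln). The matrix they make holds type I collagen (Col1a1 and Col1a2) and type III collagen (Col3a1), cross-linked by lysyl oxidase (Lox) and decorated by decorin (Dcn) and extracellular matrix protein 1 (Ecm1). These 10 genes were followed in rat liver across an oral dose range of Isodecyl Diphenyl Phosphate (IDDP), an organophosphate ester that serves as flame retardant and plasticiser. The members were the probe sets that the array annotation maps to exactly 1 of the 10 symbols. All 10 genes, of 14217 that had such a probe set, were found, with 16 probe sets among 31042 tested: 3 for Pdgfrb, 2 each for Col1a1, Col1a2, Lox and Reln, and 1 each for Lrat, Col3a1, Ecm1, Dcn and Des.

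Liver RNA came from 20 male Harlan Sprague-Dawley rats with 1 Affymetrix array each, and 5 rats had corn oil alone, and IDDP groups of 3 rats received 66, 132, 263.6, 527.1 or 1054.2 mg/kg a day. All groups, controls included, were gavaged with corn oil on 4 days, and the left lobe was taken on day 5. The lowest dose equals 0.169 mmol/kg and the highest 2.7 mmol/kg. Values are log2 levels (RMA), a scale on which a step of 1 is a 2-fold difference, and a level of 1 probe set cannot be set against that of another. Array medians lay between 6.32 and 6.41, and hepatocyte markers were bright, with control means from 9.87 to 15.34 over 16 measured genes. All 10 genes had a control mean, by their brightest probe set, above the median of all probe sets. RNA quality was read from actin and GAPDH control probes as the level at the 3' end less that at the 5' end, a value that grows as RNA degrades, and it was 1.64 ± 0.27 in controls (SD, n = 5) and 1.68 ± 0.11 at 1054.2 mg/kg (SD, n = 3). It was highest in 132 mg/kg replicate 2 (3.25) and 263.6 mg/kg replicate 2 (2.47).

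RefSeq start-site sequences (GRCr8) were matched for 5 of the 10 genes, and these are printed to set 3 genes that fell at the highest dose (Lrat, Ecm1 and Reln) beside Col1a2 and Des, which did not pass the test. Each runs 5′ to 3′ on the gene's strand, from 250 bases before the annotated start to 50 after it. Capitals mark matches on either strand to 4 motifs. The TATA box was searched as TATAAA. The CAAT box was searched as CCAAT. The GC box was searched as GGGCGG. The AP-1 site was searched as TGANTCA, with N for any base.
Lrat, chr2:170571163-170571462, minus strand: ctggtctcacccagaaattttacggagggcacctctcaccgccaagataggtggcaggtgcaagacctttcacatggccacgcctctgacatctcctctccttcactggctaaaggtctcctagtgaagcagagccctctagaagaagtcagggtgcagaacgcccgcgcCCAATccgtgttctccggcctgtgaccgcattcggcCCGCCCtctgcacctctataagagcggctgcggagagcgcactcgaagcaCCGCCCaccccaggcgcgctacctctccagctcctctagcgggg
Ecm1, chr2:185981557-185981856, minus strand: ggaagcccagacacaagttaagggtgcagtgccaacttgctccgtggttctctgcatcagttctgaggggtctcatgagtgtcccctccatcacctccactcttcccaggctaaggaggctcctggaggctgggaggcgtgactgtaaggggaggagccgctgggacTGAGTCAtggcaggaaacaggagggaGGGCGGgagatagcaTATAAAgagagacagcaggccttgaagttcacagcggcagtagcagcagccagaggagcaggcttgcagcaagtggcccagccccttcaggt
Reln, chr4:13628318-13628617, plus strand: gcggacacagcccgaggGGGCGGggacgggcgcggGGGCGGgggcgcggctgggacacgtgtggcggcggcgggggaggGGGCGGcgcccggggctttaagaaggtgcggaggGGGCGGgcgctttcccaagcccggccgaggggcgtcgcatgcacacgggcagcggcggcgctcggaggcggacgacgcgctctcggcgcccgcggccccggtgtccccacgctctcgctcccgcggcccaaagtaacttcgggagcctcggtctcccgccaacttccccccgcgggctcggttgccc
Col1a2, chr4:33518307-33518606, plus strand: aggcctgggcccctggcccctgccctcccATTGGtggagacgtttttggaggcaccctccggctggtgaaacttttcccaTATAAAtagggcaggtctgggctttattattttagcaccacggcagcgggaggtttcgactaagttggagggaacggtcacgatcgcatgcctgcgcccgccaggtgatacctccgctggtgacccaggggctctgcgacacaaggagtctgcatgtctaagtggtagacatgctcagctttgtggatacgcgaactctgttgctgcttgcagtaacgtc
Des, chr9:84299376-84299675, plus strand: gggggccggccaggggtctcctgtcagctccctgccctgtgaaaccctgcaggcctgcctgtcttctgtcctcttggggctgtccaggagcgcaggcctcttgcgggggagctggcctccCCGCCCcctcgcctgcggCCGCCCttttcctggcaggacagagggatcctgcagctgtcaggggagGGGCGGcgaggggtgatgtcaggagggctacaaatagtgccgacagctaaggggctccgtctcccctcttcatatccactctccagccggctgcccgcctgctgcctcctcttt

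The GC box had 2 matches in Lrat, 1 in Ecm1 and 4 in Reln, but also 3 in Des, so it did not separate the genes that fell from those that did not pass, and 33.1% of all 33469 rat start-site windows of this length held it. The Ecm1 window also held a TATA box starting 42 bases before the annotated start and an AP-1 match starting 83 bases before it, motifs held by 14.2% and 7.33% of all windows. The Lrat window had a CCAAT match 80 bases before the start (37.5% of all windows), and the Des window had GC boxes alone. The Col1a2 window had no GC box, a CCAAT match starting 221 bases before the start and a TATA match starting 170 bases before it. The Reln window was 79% G or C, against 61.3% for Lrat, 59% for Ecm1, 57% for Col1a2 and 67.7% for Des. These matches describe the letters of the windows and were not tested against expression.

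At 1054.2 mg/kg, 6 of the 10 genes fell: Lrat, Pdgfrb, Col3a1, Lox, Ecm1 and Reln. In terms of probe sets 7 of 16 fell, 0 rose and 9 did not pass (limma, Benjamini-Hochberg adjusted p under 0.05 over all probe sets), against 1.44% of all probe sets called lower and 1.86% called higher. The falls ran from 1.55-fold for Reln to 4.17-fold for Lox. The median change of the 16 probe sets was -0.47 log2, against -0.01 over all tested probe sets, and 14 of the 16 were below 0, against 51.5% of all. Every treated rat lay below every control for 8 of the 16, against 5.81% of all probe sets. Since whole liver was measured, fewer stellate cells and less RNA per cell cannot be told apart. Removing 1 control or 1054.2 mg/kg rat lowered the count of 7. It was 5 without control rat 3 or 4, and 4 without control rat 5 or dosed rat 1. It was 3 without control rat 1 or 2. The count was 1 without dosed rat 2 (Pdgfrb remaining) and 1 without dosed rat 3 (Reln remaining). In the same fits 2.08% to 3.08% of all probe sets passed in either direction without 1 control. The shares without dosed rat 1, 2 or 3 were 3.44%, 1.7% and 1.3% in that order.

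**Figure D1:**
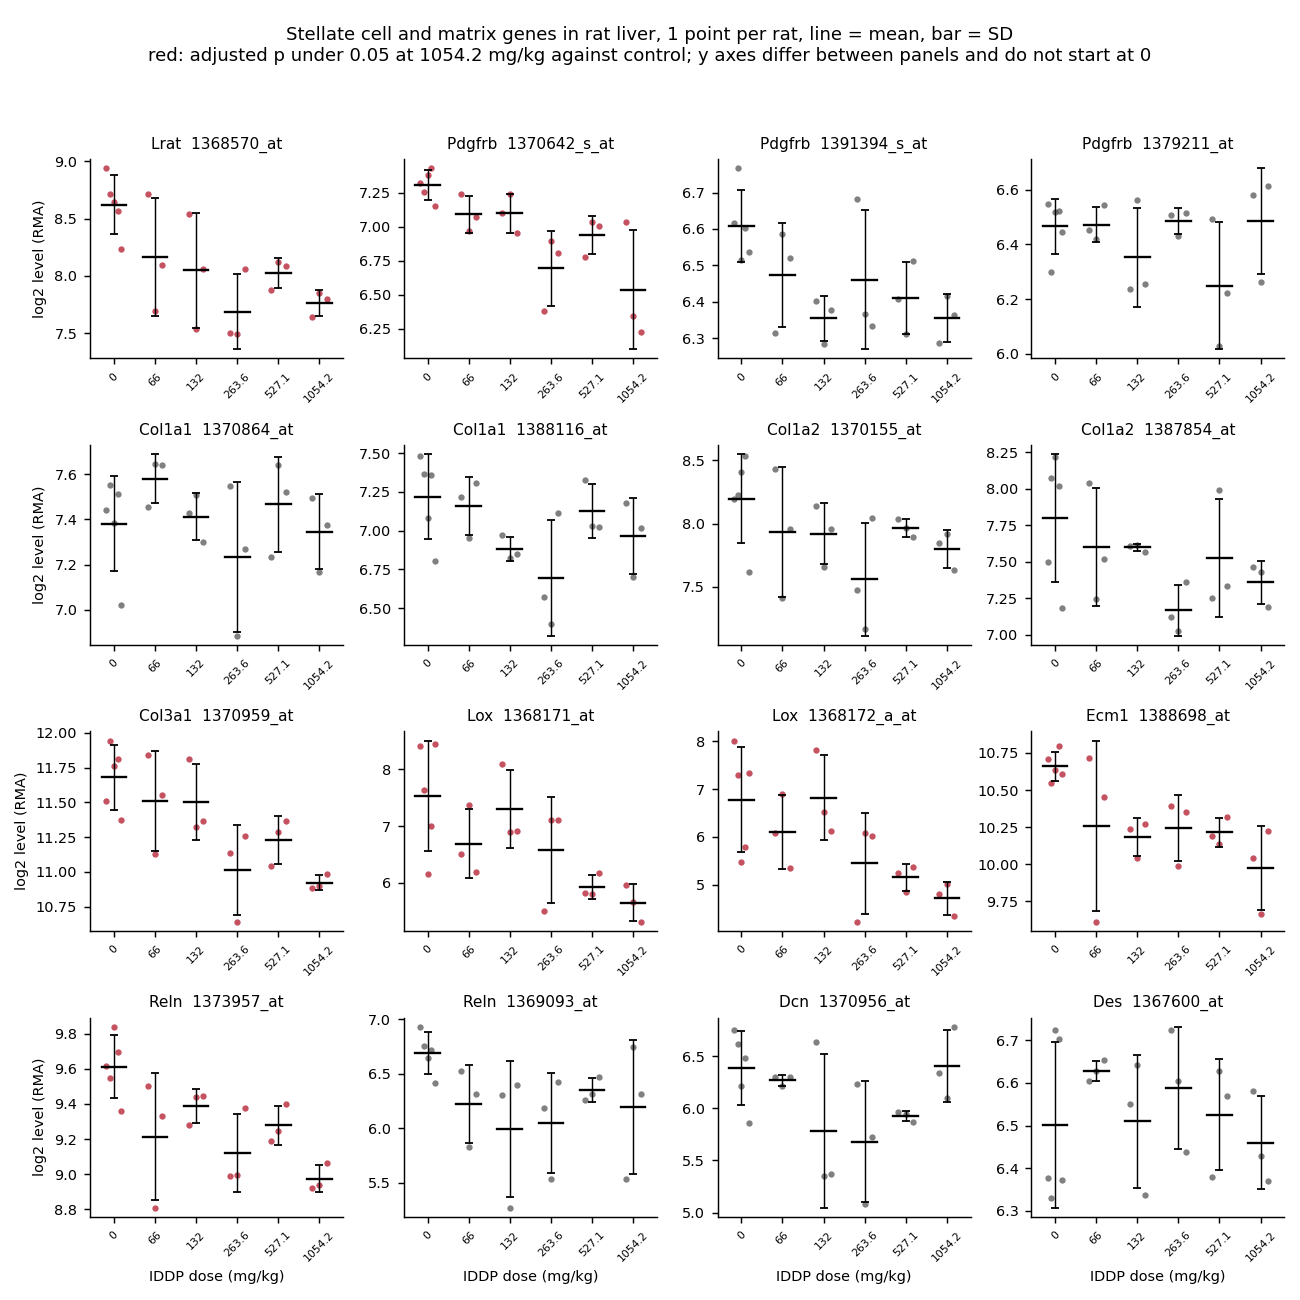
Log2 level (y axis, RMA; scales differ between panels and do not start at 0) of the 16 probe sets against IDDP dose (x axis, mg/kg). Each point is 1 rat, lines are group means and bars SD (n = 5 at dose 0, n = 3 elsewhere). Red panels are the 7 probe sets with an adjusted p under 0.05 at 1054.2 mg/kg, such as Lrat, whose 3 rats at that dose (7.64 to 7.85) lie below the lowest control (8.24).

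Lrat, which esterifies retinol for storage in stellate cells, had log2 levels of 8.94, 8.72, 8.65, 8.57 and 8.24 in control replicates 1 to 5. At 1054.2 mg/kg the 3 rats were at 7.64, 7.85 and 7.80, all below the lowest control. The gene was 1.81-fold lower (log2 change -0.86 ± 0.21 SE, limma adjusted p = 0.0300). The drop was not a steady function of dose. Levels were 8.71, 7.69 and 8.10 at 66 mg/kg, 8.54, 7.54 and 8.06 at 132 mg/kg, 7.50, 7.49 and 8.06 at 263.6 mg/kg, and 7.87, 8.12 and 8.09 at 527.1 mg/kg. The lowest group mean was at 263.6 mg/kg (7.69 ± 0.33), where the change of -0.94 ± 0.21 missed the threshold (adjusted p = 0.0573), and all rats at the 3 highest doses were below all controls. At 1054.2 mg/kg the adjusted p of Lrat was between 0.0565 and 0.106 without any 1 of control replicates 1 to 4 or of the treated rats.

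Pdgfrb, the receptor through which platelet-derived growth factor drives stellate cell growth and migration, was read by 3 probe sets that did not give the same picture. The brightest, 1370642_s_at, was at 7.32, 7.26, 7.38, 7.43 and 7.15 in controls and at 7.04, 6.35 and 6.23 at 1054.2 mg/kg. Replicate 1 at this dose sat just under the lowest control, and the other two rats were far below it. The fall was 1.71-fold (-0.77 ± 0.15, limma adjusted p = 0.00585). At the lower doses this probe set read 7.24, 6.97 and 7.07 (66 mg/kg), 7.10, 7.25 and 6.96 (132 mg/kg), 6.38, 6.90 and 6.81 (263.6 mg/kg), and 6.78, 7.04 and 7.00 (527.1 mg/kg). No rat from 263.6 mg/kg upwards reached the control range. Probe set 1391394_s_at had a change of -0.25 ± 0.09 (95% interval -0.45 to -0.06, adjusted p = 0.173) and 1379211_at one of 0.02 ± 0.11 (-0.21 to 0.25, adjusted p = 0.969), so the call rests on 1 of 3 probe sets. Across the 20 arrays Pearson's r of the brightest probe set with the other two was 0.16 and -0.01, given as a description. Without 1054.2 mg/kg replicate 3 its adjusted p was 0.0682.

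Of the fibrillar collagen genes, Col3a1 fell. This gene, whose product forms the fine reticulin fibres of the liver, was at 11.51, 11.95, 11.76, 11.81 and 11.38 in controls and at 10.89, 10.90 and 10.98 at 1054.2 mg/kg. The 3 treated rats were nearly equal and well under every control, a 1.69-fold fall (-0.76 ± 0.17, limma adjusted p = 0.0144). Levels were 11.84, 11.13 and 11.55 at 66 mg/kg, 11.81, 11.32 and 11.37 at 132 mg/kg, 11.14, 10.64 and 11.26 at 263.6 mg/kg, and 11.04, 11.29 and 11.37 at 527.1 mg/kg. At the 2 lowest doses 3 of 6 rats were below the lowest control, and at the 3 highest doses all 9 were. With dosed rat 2 or 3 removed the adjusted p was 0.0552 to 0.0616.

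The type I collagen genes did not pass at any dose. Col1a1 read 7.44, 7.55, 7.38, 7.51 and 7.02 in controls and 7.49, 7.17 and 7.37 at 1054.2 mg/kg by probe set 1370864_at, so the groups overlapped (change -0.04, 95% interval -0.33 to 0.26). By its other probe set, 1388116_at, the change was -0.25 (-0.59 to 0.09). Col1a2, which encodes the partner chain, read 8.19, 8.22, 8.40, 8.54 and 7.62 in controls and 7.85, 7.92 and 7.63 at 1054.2 mg/kg by probe set 1370155_at. The treated rats fell between the low control replicate 5 and the other four controls, for a change of -0.39 (-0.85 to 0.06, adjusted p = 0.420). The other Col1a2 probe set gave -0.44 (-0.88 to 0.00, adjusted p = 0.338). For both genes the lowest group mean was at 263.6 mg/kg by each probe set, with Col1a2 at -0.63 by both (adjusted p = 0.216 and 0.209). The difference between the responses of Col3a1 and of the type I genes was not tested. The Col3a1 interval (-1.11 to -0.41) overlapped those of both Col1a2 probe sets and of Col1a1 1388116_at. It did not overlap that of Col1a1 1370864_at.

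Lox, the copper enzyme that oxidises lysines of collagen and elastin so that they cross-link, had the largest change and also the widest spread between control rats. Probe set 1368171_at was at 8.42, 7.64, 6.15, 7.01 and 8.45 in controls and at 5.97, 5.66 and 5.32 at 1054.2 mg/kg. All 3 treated rats were below the lowest control, by a small margin against control replicate 3 and by more than 2 log2 units against replicates 1 and 5. The mean was 3.69-fold lower (-1.88 ± 0.45, limma adjusted p = 0.0244). Probe set 1368172_a_at read 8.01, 7.29, 5.46, 5.78 and 7.34 in controls and 4.80, 5.01 and 4.34 at 1054.2 mg/kg, 4.17-fold lower (-2.06 ± 0.53, adjusted p = 0.0344). Both probe sets ranked the control rats alike at the low end, and r between them was 0.96 over 20 arrays.

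At the lower doses Lox by 1368171_at read 6.52, 7.37 and 6.20 (66 mg/kg), 8.09, 6.89 and 6.92 (132 mg/kg), 5.50, 7.12 and 7.11 (263.6 mg/kg), and 5.82, 5.80 and 6.17 (527.1 mg/kg). The spread was wide up to 263.6 mg/kg and narrow at the 2 highest doses, whose SDs were 0.21 and 0.32 against 0.98 in controls. In every rat of these 2 doses both Lox probe sets lay below the lowest array median (6.32). Whether signals at this level follow the transcript in full was not tested. At 527.1 mg/kg the change was -1.60 ± 0.45 (adjusted p = 0.0828), and 1054.2 mg/kg differed from 527.1 mg/kg by -0.28 (95% interval -1.34 to 0.78). Removing any of control rats 1, 2 and 5 or of dosed rats 2 and 3 ended the call of 1368171_at at 1054.2 mg/kg (adjusted p = 0.0522 to 0.132), and removing these or dosed rat 1 ended that of 1368172_a_at (0.0690 to 0.166). Both were also lost when the variance was allowed to depend on brightness, with robust moderation (0.0833 and 0.0921).

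Among the secreted matrix proteins, Ecm1, a glycoprotein that in liver holds latent TGF-beta inactive, was at 10.71, 10.55, 10.63, 10.80 and 10.61 in controls. The 5 controls spanned only 0.25 log2 units. At 1054.2 mg/kg it was at 10.04, 9.67 and 10.22, a 1.60-fold fall (-0.68 ± 0.18, limma adjusted p = 0.0356). At 132, 263.6 and 527.1 mg/kg all 9 rats, from 9.99 to 10.39, were also below every control, with changes of -0.47, -0.42 and -0.45 that did not pass (adjusted p = 0.232, 0.347 and 0.246). At 66 mg/kg the rats spread widely, at 10.71, 9.61 and 10.45. Leaving out any 1 of the 8 rats gave an adjusted p between 0.0521 and 0.232 at 1054.2 mg/kg.

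Dcn, the small leucine-rich proteoglycan decorin that coats collagen fibrils, did not pass at any dose. It read 6.75, 6.62, 6.21, 6.48 and 5.85 in controls and 6.34, 6.10 and 6.78 at 1054.2 mg/kg, so that 2 of the 3 rats lay inside the control range and 1 just above it (change 0.02, 95% interval -0.53 to 0.58). Its group means were lower at 132, 263.6 and 527.1 mg/kg (5.78, 5.68 and 5.93, against 6.38 in controls), with changes of -0.60, -0.70 and -0.46 (adjusted p = 0.304, 0.282 and 0.494). The lowest rats were 132 mg/kg replicates 2 and 3 (5.35 and 5.37) and 263.6 mg/kg replicate 2 (5.08). Of these, 132 mg/kg replicate 2 and 263.6 mg/kg replicate 2 were the arrays of highest 3' minus 5' difference, whose part in these levels was not tested.

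Reln, a large secreted glycoprotein that quiescent stellate cells release, fell by 1 of its 2 probe sets. By 1373957_at it was at 9.61, 9.55, 9.84, 9.69 and 9.36 in controls and at 8.92, 8.94 and 9.06 at 1054.2 mg/kg. The treated rats lay close together and below all controls, 1.55-fold lower (-0.64 ± 0.14, limma adjusted p = 0.0110). At the other doses the levels were 9.50, 8.81 and 9.33 (66 mg/kg), 9.28, 9.44 and 9.45 (132 mg/kg), 8.99, 9.00 and 9.37 (263.6 mg/kg), and 9.19, 9.24 and 9.40 (527.1 mg/kg). Each of these groups had at least 1 rat in the control range. The dimmer probe set 1369093_at was at 6.93, 6.75, 6.64, 6.72 and 6.41 in controls and at 5.53, 6.74 and 6.31 at 1054.2 mg/kg, where replicate 2 stood among the controls (-0.50 ± 0.26, 95% interval -1.04 to 0.05, adjusted p = 0.396). Without 1054.2 mg/kg replicate 2 the adjusted p of 1373957_at was 0.0536.

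Des, the muscle-type intermediate filament long used to stain stellate cells in rat liver, did not pass at any dose. The controls read 6.38, 6.33, 6.72, 6.70 and 6.37 and the rats at 1054.2 mg/kg 6.58, 6.43 and 6.37, a change of -0.04 (95% interval -0.27 to 0.19). Its changes at the other doses lay between 0.01 and 0.13. The groups overlapped throughout. At 1054.2 mg/kg the interval left room for falls in the probe set signal no larger than 0.27 log2 units. The mean Des signal over all arrays was 6.53, above that of 53.1% of probe sets, so it was not bright. Whether a signal at this level follows the transcript in full was not tested, so the interval does not bound a fall of the transcript.

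**Figure D2:**
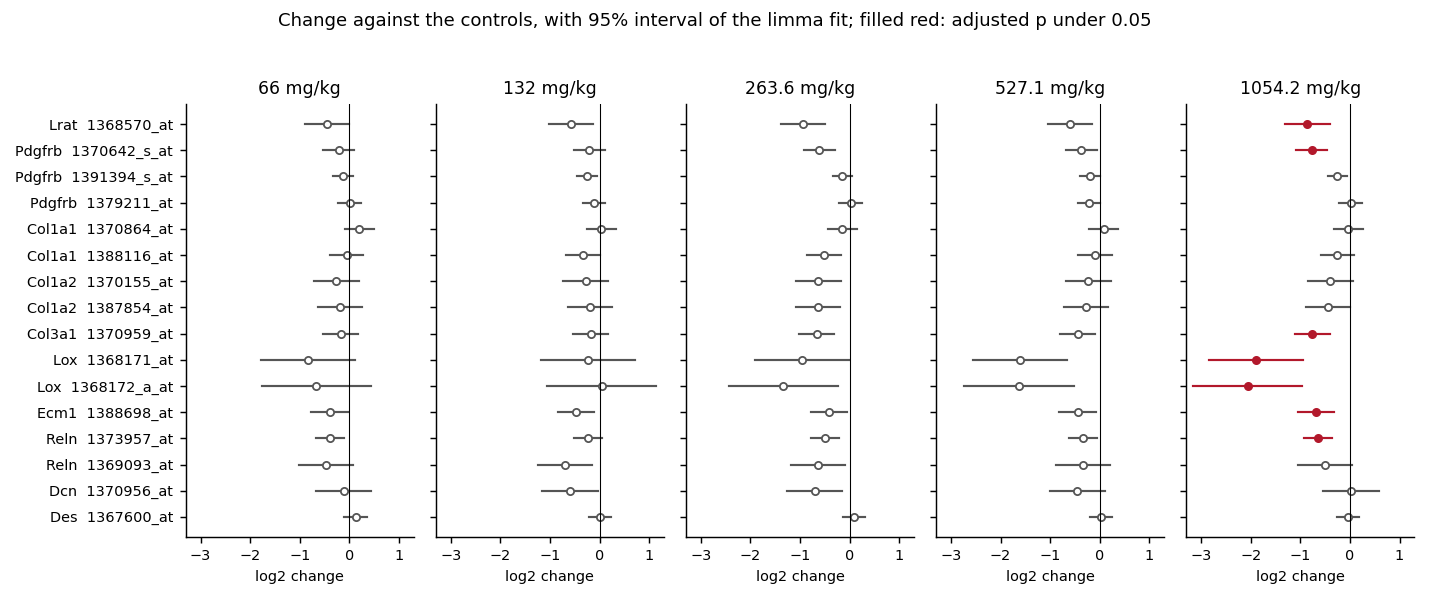
Log2 change against the controls (x axis) of the 16 probe sets (y axis) at each of the 5 doses, 1 panel per dose. Points are limma estimates and lines their 95% intervals; filled red points have an adjusted p under 0.05. Filled points appear at 1054.2 mg/kg alone, and the Lox intervals are the widest.

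Below 1054.2 mg/kg none of the 16 probe sets passed limma's adjusted threshold. At 66 mg/kg 0 passed and 3 had an unadjusted p under 0.05, where 0.00644% of all probe sets passed in either direction and 3.24% did so unadjusted, and the median member change was -0.21. At 132 mg/kg 0 passed, 5 unadjusted, against 0.0677% and 14.9% of all, with a median of -0.23. At 263.6 mg/kg 0 passed, 12 unadjusted, against 0.428% and 11.9% of all, with a median of -0.62, lower than the -0.47 at the highest dose. At 527.1 mg/kg 0 passed, 8 unadjusted, against 1.68% and 13.6% of all, with a median of -0.34. All probe sets at an unadjusted p under 0.05 were lower than the controls. These comparisons share their control rats, so that a deviation of the controls enters each of them.

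Rats of a dose lay wholly below the controls for 0, 3, 4, 6 and 8 of the 16 probe sets from the lowest to the highest dose, against 1.91%, 3.85%, 4.18%, 4.85% and 5.81% of all probe sets. They lay wholly above the controls for 0 of the 16 at every dose, against 2.68%, 4.32%, 4.82%, 7.04% and 6.6% of all. Comparisons between doses, which do not use the controls, passed for 0 of 16 by limma. At 1054.2 against 527.1 mg/kg 1 of 16 had an unadjusted p under 0.05 (Pdgfrb), where 0.0129% of all probe sets passed and 6.08% did so unadjusted. At 1054.2 against 66 mg/kg 3 of 16 did, where 0.496% passed and 7.33% did so unadjusted. In the former, the median member difference was -0.17, and in the latter it was -0.24.

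The slope on the rank of the dose was lower than 0 for all 16 probe sets and passed for 7, where 2.08% of all probe sets were called lower and 2.97% higher. These were the same 7 as at 1054.2 mg/kg. Per dose step the slopes were -0.36 ± 0.08 and -0.41 ± 0.09 for the Lox probe sets (limma adjusted p = 0.00742 and 0.00919), -0.16 ± 0.04 for Lrat (0.0175), -0.15 ± 0.03 for Col3a1 (0.00390), -0.14 ± 0.03 for Pdgfrb (0.00353), -0.11 ± 0.03 for Ecm1 (0.0352) and -0.10 ± 0.03 for Reln (0.0192). With the 1054.2 mg/kg rats left out, an alternative chosen after seeing the data, 1 of 16 passed (Pdgfrb, -0.12 ± 0.03, adjusted p = 0.0331) and 9 did so unadjusted, against 2.96% of all probe sets adjusted and 15.8% unadjusted. With the dose in mg/kg in place of its rank, 4 passed, for Pdgfrb, Col3a1 and Lox, against 2.83% of all probe sets.

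Related genes were read from lists, each gene by its brightest probe set. Over all 14217 genes read this way, 2.14% passed as lower and 2.69% as higher at 1054.2 mg/kg. Of 18 other stellate cell genes 3 fell, 0 rose and 15 did not pass: the parathyroid hormone receptor gene Pth1r (-0.79 ± 0.13), the metalloreductase gene Steap4 (-0.74 ± 0.17) and the collectin gene Colec11 (-0.63 ± 0.11). Of 20 fibroblast and myofibroblast genes Pdgfra, the other PDGF receptor, fell (-0.66 ± 0.11) and 19 did not pass. Of 19 other collagens 4 fell and 15 did not pass, led by Col6a3 of the beaded filaments (-0.92 ± 0.14), Col14a1, which binds fibril surfaces (-0.79 ± 0.14), and Col4a1 of basement membranes (-0.66 ± 0.16). Of 32 proteoglycans and other matrix proteins 7 fell and 25 did not pass, led by Ogn (-0.88 ± 0.22), Igfbp7 (-0.71 ± 0.16) and the proteoglycan gene Bgn (-0.68 ± 0.14). The single call of the fibroblast list is not a result about that list. The medians were -0.21 (stellate), -0.11 (fibroblast), -0.30 (collagens) and -0.23 (matrix proteins), against 0.00 for all genes. Without 1 rat, adjusted p passed 0.05 for Steap4 (0.0652 to 0.0760, treated replicates 1 or 3), Col4a1 (up to 0.0908, control replicate 4 or treated replicates 2 or 3), Ogn (up to 0.161, control replicates 1 to 4 or treated replicates 1 or 3), and Igfbp7 and Bgn (0.0843 and 0.0770, treated replicate 2).

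Of 19 genes of collagen folding, processing and cross-linking 0 passed, the largest change being in the collagen chaperone gene Serpinh1 (-0.43 ± 0.15, limma adjusted p = 0.130). Serpinh1 did pass in the fit of the 2 groups alone (0.0288) and with RNA quality as a covariate (0.0449). Of 22 genes of matrix breakdown and its inhibitors 0 passed, with Mmp14, a membrane-bound collagenase, changing most (-0.53 ± 0.21, adjusted p = 0.223). Of 9 genes of the reelin pathway 0 passed, with the adaptor gene Dab1 changing most (-0.60 ± 0.24, adjusted p = 0.209). Among 25 genes of PDGF and TGF-beta signalling 4 fell, 1 rose and 20 did not pass, against the 2.14% lower and 2.69% higher over all genes. Inhba, the subunit of activin A (-1.09 ± 0.26), and Skil, a repressor of SMAD signalling (-0.95 ± 0.15), fell most, and Ccn1, a matricellular protein, rose (0.90 ± 0.15) from a dim control level of 5.10. Among 26 genes of retinoid storage and retinoic acid Aldh1a1, which makes retinoic acid, rose (1.36 ± 0.10), as did the alcohol dehydrogenase gene Adh7 (0.89 ± 0.18) and Dhrs4, a retinal reductase gene named here although the rule did not take it (0.28 ± 0.07), while the carboxylesterase gene Ces1d fell (-0.48 ± 0.11) and 22 did not pass. Inhba did not pass without treated replicates 1 or 3 (0.0697 to 0.114), nor Adh7 (0.0587 and 0.0663) or Ces1d (0.0720 and 0.113) without treated replicates 2 or 3.

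**Figure D3:**
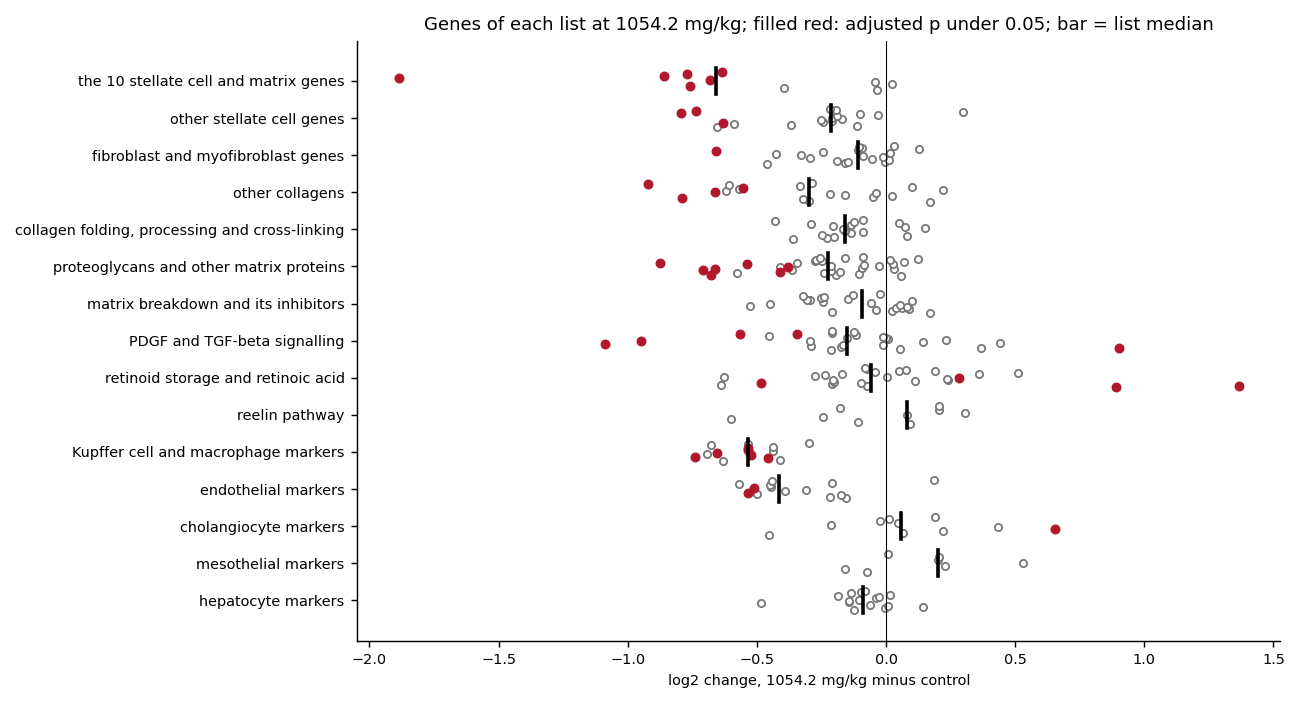
Log2 change at 1054.2 mg/kg minus control (x axis) of every measured gene of each list (y axis), by its brightest probe set. Filled red points have an adjusted p under 0.05, open points do not, and the bar is the list's median, which is -0.66 for the 10 genes and -0.09 for the hepatocyte markers.

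Among markers of other liver cells, those of Kupffer cells were lower in the same rats. The mean of the 10 genes per rat, relative to the control mean, was between -0.69 and -0.51 at 1054.2 mg/kg and between -0.18 and 0.14 in controls. The mean of 14 Kupffer cell and macrophage markers was between -0.57 and -0.49 at 1054.2 mg/kg and between -0.22 and 0.19 in controls, and 6 of the 14 fell, against 2.14% of all genes, among them C1qb (-0.74 ± 0.18), Cd5l (-0.65 ± 0.14) and Clec4f (-0.54 ± 0.12). That of 14 endothelial markers was between -0.46 and -0.14 at 1054.2 mg/kg, overlapping the controls (-0.18 to 0.17). Of these 14, 2 fell, Gpr182 (-0.53 ± 0.12) and Pecam1 (-0.51 ± 0.12), and 12 did not pass, against 2.14% of all genes called lower. The median endothelial change was -0.41, with 13 of 14 below 0. The part of these Kupffer cell and endothelial markers in the result was not tested. The mean of 16 hepatocyte markers was between -0.12 and -0.08 at 1054.2 mg/kg, also below all controls (-0.03 to 0.03), with 0 of 16 passing. The largest change was in Ass1 (-0.49 ± 0.20, limma adjusted p = 0.220), which passed with RNA quality as a covariate (0.0263). Of 10 cholangiocyte markers Epcam rose (0.65 ± 0.12) and 9 did not pass, against 2.69% of all genes called higher. This single call is not a result about the list. The list's mean per rat at 1054.2 mg/kg (-0.15 to 0.42) overlapped the controls (-0.16 to 0.22). Of 7 mesothelial markers 0 passed, with Lrrn4 changing most (0.53 ± 0.25, limma adjusted p = 0.320). Without 1 rat, C1qb (control replicates 1 or 4 or any treated rat), Cd5l and Clec4f (treated replicate 3), Gpr182 (treated replicates 2 or 3) and Pecam1 (treated replicate 2) did not pass, with adjusted p up to 0.0966, 0.0643, 0.111, 0.115 and 0.0904 in that order.

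**Figure D4:**
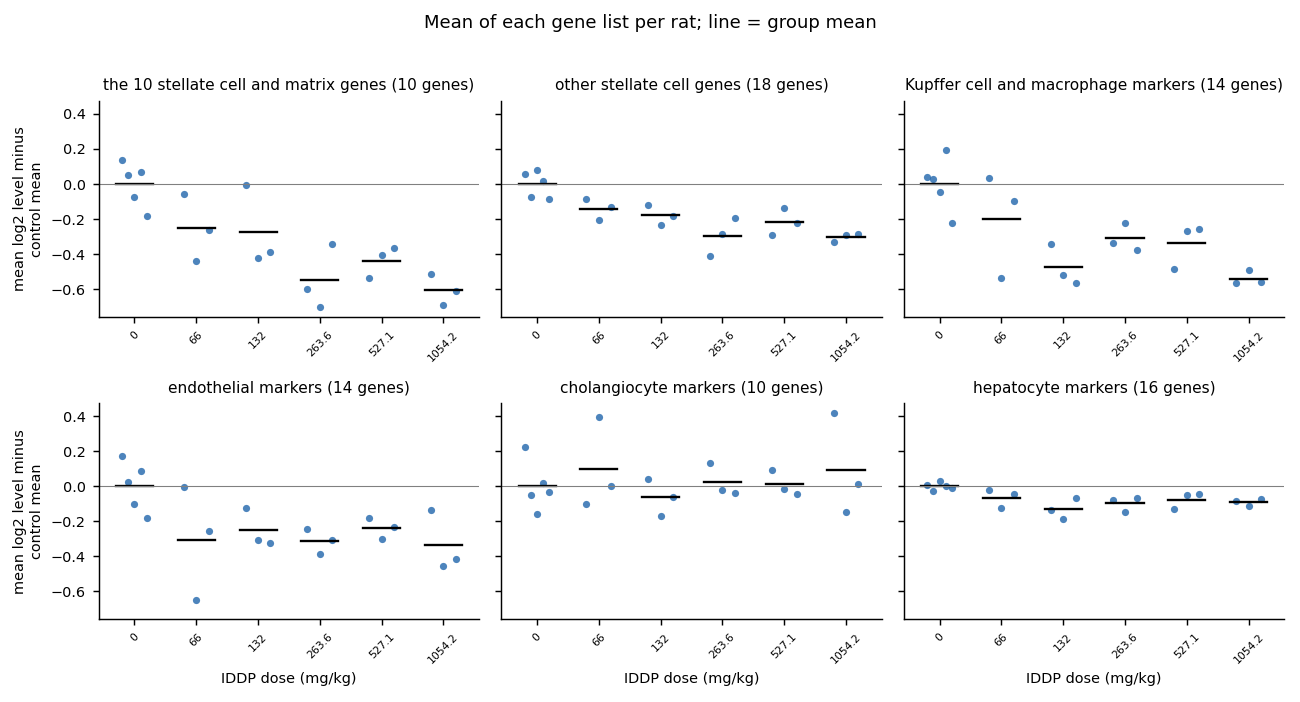
Mean log2 level of each gene list minus its control mean (y axis) against IDDP dose (x axis, mg/kg), 1 point per rat and lines for group means. Group means of the 10 genes (-0.60) and of the Kupffer cell markers (-0.54) are lowest at 1054.2 mg/kg, and hepatocyte markers stay within 0.19 of the control mean in every rat.

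The 6 genes whose levels were most like the mean of the 10 genes over the 20 arrays were Igfbp7 (Pearson's r 0.94, Spearman's rho 0.95), Col14a1 (0.92 and 0.91), the creatine synthesis gene Gatm (0.91 and 0.90), the basement membrane gene Nid1 (0.89 and 0.87), the macrophage mannose receptor gene Mrc1 (0.89 and 0.84) and the taurine transporter gene Slc6a6 (0.89 and 0.84). They were taken as the highest of all named genes, so no p belongs to them, and arrays share their dose groups. Inside dose groups, with group means removed, r was 0.88 for Igfbp7, 0.78 for Col14a1 and 0.53 for Slc6a6. The genes most like Lox were Cav2, which encodes a caveolin (r 0.85, rho 0.86), Arhgap25 (0.79 and 0.83), Clca2 (0.77 and 0.71), Nim1k (0.77 and 0.76), Dab1 by another probe set (0.76 and 0.73) and Tmsb4x (0.76 and 0.74). No gene was on both lists. Without the 2 arrays farthest from the median the first list kept r between 0.84 and 0.91 and that of Lox between 0.66 and 0.82.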

How the data were processed

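Per the submitters' processing notes, the authors normalised the arrays with RMA, and the deposited table holds log2 intensities per probe set. The sources used here name neither the RMA version nor which arrays were normalised together. RMA forces arrays onto a common distribution, so changes are relative to the bulk of probe sets. Left out were 57 Affymetrix control probe sets, and 31042 were tested with no brightness filter. In limma 3.58.1 (R 4.3.3) the model held a mean for every dose and used all 20 arrays (14 residual and 5.75 prior degrees of freedom). Tests are two-sided, the Benjamini-Hochberg adjustment ran over every tested probe set with a threshold of 0.05, and intervals are 95%. The number of arrays limits the precision, and p-values measure the spread between rats. The code was tested on simulated data.

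The 10 genes, and the lists of related genes written from general knowledge, were chosen with earlier results of these data known. Results are given for every probe set of the 10 genes. From each list the rule took up to 3 genes with the largest change among those past the threshold at 1054.2 mg/kg, or the largest where none passed, and for pattern the 6 genes of highest r. Alternatives were a filter on dim probe sets, other scalings, 1 probe set per gene, fits of 2 groups, another variance model, RNA quality, replicate numbers as a block, and leaving out each rat. Same-numbered rats of different doses correlated at a median of 0.07 (45 pairs), and 33.3% of pairs exceeded 0.1. For rats of other numbers the median was -0.02 (90 pairs), and 27.8% exceeded 0.1. Whether the numbers stand for a pairing of the rats was not tested.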

Additional observations from a re-analysis of the deposited data

How the results depend on the processing

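The count of 7 lower probe sets at 1054.2 mg/kg stayed between 5 and 7 under 9 alternatives. Leaving out dim probe sets gave 6 of 13, against 7.39% of all tested there. With 1 probe set per gene it was 6 of 10, against 6.47%. The other alternatives kept all 16, against 1.98% to 4.65% of all probe sets. The count was between 1 and 5 when 1 control or 1054.2 mg/kg rat was left out, against 1.3% to 3.44% of all. It stayed 7 without any 1 of the other 12 rats, against 2.93% to 3.93% of all. With the replicate number as a block the count was 5, without Lox, and calls over all probe sets went from 448 lower and 576 higher to 614 in all. Whether these numbers stand for a pairing was not tested (9 of 18 rats were closest to their own number). The 0 at 263.6 mg/kg became 1 without dim probe sets, with quantile normalization again, with 1 probe set per gene and in the fit of 2 groups (Lrat each time), 1 with the 3' minus 5' covariate (Pdgfrb), and 0 to 2 without 1 rat. The 0 at 527.1 mg/kg became 2 in the fit of 2 groups (Lrat and Ecm1) and 0 to 1 without 1 rat. At 1054.2 against 66 mg/kg it was 0 to 1 without 1 rat. The 7 of the trend became 4 on mg/kg, 1 without the highest dose, and 5 to 7 without 1 rat. Without the 2 arrays of highest 3' minus 5' difference (chosen after seeing the data) both counts of 7 stayed. Only uncalled changes turned sign: Dcn to -0.12 under the block, and without 1 rat Dcn (-0.16 to 0.18), Pdgfrb 1379211_at (-0.045 to 0.13), Col1a1 1370864_at (-0.13 to 0.052) and Des (-0.10 to 0.014). The cause was not tested. Arrays give no depth, so with 3 rats a dose the wide intervals of Lox and Dcn set the limit.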

Other observations

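The 5 control rats differed more in Lox than in nearly any other transcript. The SD of its probe sets among controls was 0.98 and 1.10 log2, larger than that of 99.9% of all probe sets or more, whose median was 0.13. By contrast, Ecm1 had a control SD of 0.10, larger than that of 28.5% of probe sets. Type I collagen was also uneven among controls, with SDs of 0.35 and 0.44 for the probe sets of Col1a2, and control replicate 5 was the lowest control for both probe sets of Col1a1 and of Col1a2 while it was the highest for Lox by 1368171_at.

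At 66 mg/kg, replicate 2 was the lowest rat of its dose in several lists and the highest in others. Its mean over the 10 genes was -0.44 relative to controls, against -0.06 and -0.26 in replicates 1 and 3. The Kupffer cell markers were at -0.54 against 0.04 and -0.10, and the endothelial markers at -0.65 against -0.01 and -0.26. Replicate 2 was the highest of its dose in cholangiocyte markers (0.40 against -0.10 and 0.002) and mesothelial markers (0.36 against -0.01 and -0.11). The fibroblast and myofibroblast genes were also highest in it (0.12 against -0.11 and 0.02). Ecm1 in this rat (9.61) was the lowest of all 20 arrays, as was Reln by 1373957_at (8.81). Its 3' minus 5' difference was 2.04, against 1.67 and 1.56.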
